A study of Mus musculus with 2 samples.

Results

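The genes described here encode the MHC class I antigen presentation machinery. They are the 7 class I heavy chain genes *H2-K1*, *H2-D1*, *H2-Q4*, *H2-Q6*, *H2-Q7*, *H2-T22* and *H2-T23*, the light chain gene *B2m*, and *Tap1* and *Tapbp*, whose products bring peptides to the heavy chain. These 10 genes were followed among the 27998 genes counted in 2 single-cell RNA sequencing (scRNA-seq) libraries of mouse lung. The set was chosen by the lower UMI counts of *H2-Q6* and *H2-Q7* in the endothelial cells (ECs) of hyperoxia, so the values of all members in ECs are a description and no test rests on them. All 10 genes were found by name in both libraries. The mice were wild type and of the strain C57BL/6 per the labels, C57BL/6J per the methods. From birth (P0) to postnatal day 14 (P14) the control group breathed room air with 21% O2 and the other group hyperoxia with 80% O2, an exposure used as a model of bronchopulmonary dysplasia. Lungs were taken at P14, at the age of 2 weeks, and the cells of 8 mice were pooled into 1 library for each group. With 1 library per group no test between groups was possible, and a difference between the oxygen groups cannot be told apart from a difference between the libraries.

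Class I molecules are carried by nearly all nucleated cells and display peptides of the cell's own proteins to CD8 T cells and to receptors of natural killer (NK) cells. Proteasomes cut the proteins, the TAP transporter moves the peptides into the endoplasmic reticulum, and tapasin, the product of *Tapbp*, holds the transporter and the empty heavy chain together until a peptide is bound. A heavy chain reaches the cell surface in complex with B2m. *H2-K1* and *H2-D1* encode the classical heavy chains, whereas the Q and T region genes encode nonclassical heavy chains with narrower roles. Interferons raise the transcription of most genes of this pathway, and lung ECs, which meet blood leukocytes in the capillaries, are known for a high class I level.

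Apart from *B2m* on chromosome 2 (ENSMUSG00000060802, mm10, 122147686 to 122153083, plus strand), all members lie on chromosome 17. *Tapbp* (ENSMUSG00000024308, 33915899 to 33929292), *H2-K1* (ENSMUSG00000061232, 33996017 to 34000347, minus strand) and *Tap1* (ENSMUSG00000037321, 34187553 to 34197225) stand at one end of the region. *H2-D1* (ENSMUSG00000073411, 35262730 to 35267499), *H2-Q4* (ENSMUSG00000035929, 35379617 to 35385290), *H2-Q6* (ENSMUSG00000073409, 35424850 to 35430055) and *H2-Q7* (ENSMUSG00000060550, 35439155 to 35443773) follow on the plus strand, and *H2-T23* (ENSMUSG00000067212, 36029773 to 36032855) and *H2-T22* (ENSMUSG00000056116, 36037128 to 36042747) lie farther along on the minus strand. *H2-Q6* and *H2-Q7* are copies that are closely alike over part of their transcripts. Their longest coding transcripts in GENCODE M21, of 2085 and 1523 bases, shared 94.6% of the bases over an aligned stretch of 1030, while the last 1056 and 458 bases at the 3′ ends were not aligned. *H2-K1* and *H2-D1* transcripts shared 88.2% of 1510 aligned bases. Reads that fit more than 1 of these copies are not counted for either, and the split of the remaining reads between copies is uncertain, so *H2-Q6* and *H2-Q7* are given singly and as a sum.

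The stretches before the start sites are shown because the members differ in which of the short motifs searched they hold there. All 10 members matched an entry of the RefSeq promoter table (GRCm38.p6), *H2-K1* with 2 entries, of which the most upstream start was used. In the 250 bases before the start, GGGGATTCC, as in sites of NF-κB, was found in 4 members (*H2-D1*, *H2-K1*, *H2-Q6* and *H2-Q7*) and in 0.213% of 32851 promoters, both strands searched. The run TTTCACTT, as in interferon consensus elements of class I genes, was found in 6 members (these and *H2-Q4* and *H2-T22*) and in 1.36% of promoters. An ISRE-like motif, named for the interferon-stimulated response element, was found in *B2m*, *H2-T22* and *H2-T23* and in 2.98% of promoters, and in *H2-T22* it overlaps TTTCACTT. CCAAT was present in all 10 members and in 33.8% of promoters. Both GGGGATTCC and TTTCACTT were held by 5 entries of the table, which belong to *H2-K1* (2 entries), *H2-D1*, *H2-Q6* and *H2-Q7*. A match is a description of the letters and not a bound site. The sequences run from 200 to 6 bases before the start, with the GGGGATTCC, TTTCACTT and ISRE-like matches in capitals. The windows of *H2-D1*, *H2-T23* and *Tapbp* overlapped annotated exons and are not shown, and that of *Tap1* held none of the motifs in capitals. *H2-K1* is from chr17:34000353-34000547 (minus strand), *H2-Q4* from chr17:35379417-35379611, *H2-Q6* from chr17:35424650-35424844, *H2-Q7* from chr17:35438955-35439149 (plus strand), *H2-T22* from chr17:36042748-36042942 (minus strand) and *B2m* from chr2:122147487-122147681 (plus strand).
H2-K1: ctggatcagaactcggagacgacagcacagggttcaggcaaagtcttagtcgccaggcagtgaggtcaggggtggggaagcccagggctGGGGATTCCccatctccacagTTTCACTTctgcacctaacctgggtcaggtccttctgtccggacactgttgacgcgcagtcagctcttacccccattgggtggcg
H2-Q4: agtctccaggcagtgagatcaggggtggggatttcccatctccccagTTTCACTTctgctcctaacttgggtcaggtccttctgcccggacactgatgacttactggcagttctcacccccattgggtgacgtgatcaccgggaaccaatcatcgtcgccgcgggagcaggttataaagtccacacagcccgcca
H2-Q6: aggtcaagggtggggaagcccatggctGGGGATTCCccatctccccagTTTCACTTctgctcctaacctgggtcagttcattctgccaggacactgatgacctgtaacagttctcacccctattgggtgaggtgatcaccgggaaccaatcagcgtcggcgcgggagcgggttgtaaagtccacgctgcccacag
H2-Q7: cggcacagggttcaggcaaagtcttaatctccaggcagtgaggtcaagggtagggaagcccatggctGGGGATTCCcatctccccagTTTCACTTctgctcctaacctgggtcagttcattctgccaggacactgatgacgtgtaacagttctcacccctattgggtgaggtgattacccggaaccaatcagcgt
H2-T22: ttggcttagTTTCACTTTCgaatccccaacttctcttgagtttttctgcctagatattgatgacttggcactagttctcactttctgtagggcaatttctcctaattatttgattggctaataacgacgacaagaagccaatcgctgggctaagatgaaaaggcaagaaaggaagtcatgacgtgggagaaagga
B2m: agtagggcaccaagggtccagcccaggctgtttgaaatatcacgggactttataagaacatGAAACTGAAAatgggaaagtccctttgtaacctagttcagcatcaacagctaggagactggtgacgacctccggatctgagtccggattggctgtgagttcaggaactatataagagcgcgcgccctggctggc
In the 4 members with both elements GGGGATTCC stands before TTTCACTT. Their log2 ratios in ECs, given next, ran from -1.99 to -0.82 and those of the other 6 members from -1.19 to -0.34, so that the ranges overlapped. The 4 include *H2-Q6* and *H2-Q7*, whose lower counts in ECs chose the set, so nothing is read from this split.

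The room air library held 4234 barcodes (39593888 UMIs, the unique molecular identifiers that mark each counted molecule), and the hyperoxia library 13223 (111934936 UMIs). After filters and doublet removal 3680 and 10472 cells were kept, with medians of 8070.5 and 7220.5 UMIs. The libraries shared 17 barcodes, 12 of them among the cells kept. Cells were clustered without the members and without the interferon and antigen processing genes listed later, and a cluster was called "like" a cell type from its markers. The endothelial-like cells, 1034 in room air and 2537 in hyperoxia, carried the endothelial cadherin gene *Cdh5* at 1917 and 1792 CPM (counts scaled to a total of 1000000 UMIs), against at most 20.1 CPM in any other lineage. The gCap-like ECs (general capillary) of the libraries lay in different clusters, since cluster 2 held 577 of the 586 cells of room air and cluster 0 held 770 of the 799 cells of hyperoxia. All artery-like and all vein-like ECs of both libraries lay in 1 cluster each, and so did the nonclassical monocyte-like cells.

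All 10 members had fewer CPM in the ECs of hyperoxia than in those of room air. Over the members the median log2 ratio (hyperoxia over room air) was -1.03, and it was 0.01 over all 8402 genes whose mean reached 10 CPM. At least 1.5-fold lower were 8 of the 10 members and none was 1.5-fold higher, where 8.9% of all genes were lower by that much and 6.67% were higher. The contrast is the one that chose the members, so nothing is read from this count. A limit of 2-fold was passed by 5 members. Levels are CPM of UMIs summed over cells, with exact Poisson 95% intervals, and log2 ratios have exact conditional 95% intervals. Where a pair of values is given, that of room air comes before that of hyperoxia. All intervals in the text cover counting error only, not the spread between mice or libraries. UMIs mark 3′ ends and were not divided by transcript length, so that a level was compared between cells and not between genes.

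*H2-K1*, a classical heavy chain, had 1654 CPM (1626 to 1682) in the ECs of room air against 706 CPM (694 to 718) in those of hyperoxia, with a log2 ratio of -1.23 (-1.26 to -1.19). For *H2-D1*, the other classical heavy chain, 1829 and 1036 CPM were counted, a log2 ratio of -0.82 (-0.85 to -0.79). The classical pair was thus lower in hyperoxia by 2.34-fold and 1.76-fold. *H2-Q6* had 217 CPM (207 to 227) in room air against 54.7 CPM (51.5 to 58.0) in hyperoxia, from 1778 and 1098 UMIs, a log2 ratio of -1.99 (-2.10 to -1.88). *H2-Q7*, which encodes a Qa-2 antigen, had 452 CPM (438 to 467) and 127 CPM (122 to 132), a log2 ratio of -1.83 (-1.91 to -1.76). As a sum the copies had 669 CPM (651 to 687) in room air against 181 CPM (176 to 187) in hyperoxia, 3.69-fold lower. The sum does not depend on how the counted reads were split, but reads that fit more than 1 copy are missing from it. *H2-Q4*, a neighbour in the Q region, had 397 and 174 CPM and a log2 ratio of -1.19 (-1.26 to -1.12), close to that of *H2-K1*.

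*H2-T22*, whose product is seen by some γδ T cells, had 122 CPM (114 to 129) in room air against 65.4 CPM (61.9 to 69.0) in hyperoxia, and its log2 ratio of -0.90 (-1.02 to -0.77) lay close to that of *H2-D1*. *H2-T23*, which encodes Qa-1, a ligand of NKG2 receptors, had 190 and 124 CPM and a log2 ratio of -0.62 (-0.71 to -0.53). *Tap1*, a subunit of the peptide transporter, had 96.9 CPM (90.3 to 104) and 43.5 CPM (40.7 to 46.5), a log2 ratio of -1.16 (-1.30 to -1.02). The ratios of *B2m* (2191 and 1726 CPM) and *Tapbp* (192 and 152 CPM) were the nearest to 0, with -0.34 for both. The intervals of room air and hyperoxia did not overlap for any of the 10 members. The share of all genes with such a gap was not counted, so nothing is read from this. The 7 heavy chains together had 4859 CPM in room air against 2287 CPM in hyperoxia, so that the ECs of room air had 2.22 heavy chain UMIs for each *B2m* UMI and those of hyperoxia 1.32. *H2-Q6* and *H2-Q7* made up 13.8% (13.4 to 14.1) of the heavy chain UMIs of ECs in room air against 7.93% (7.69 to 8.18) in hyperoxia.

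**Figure D1:**
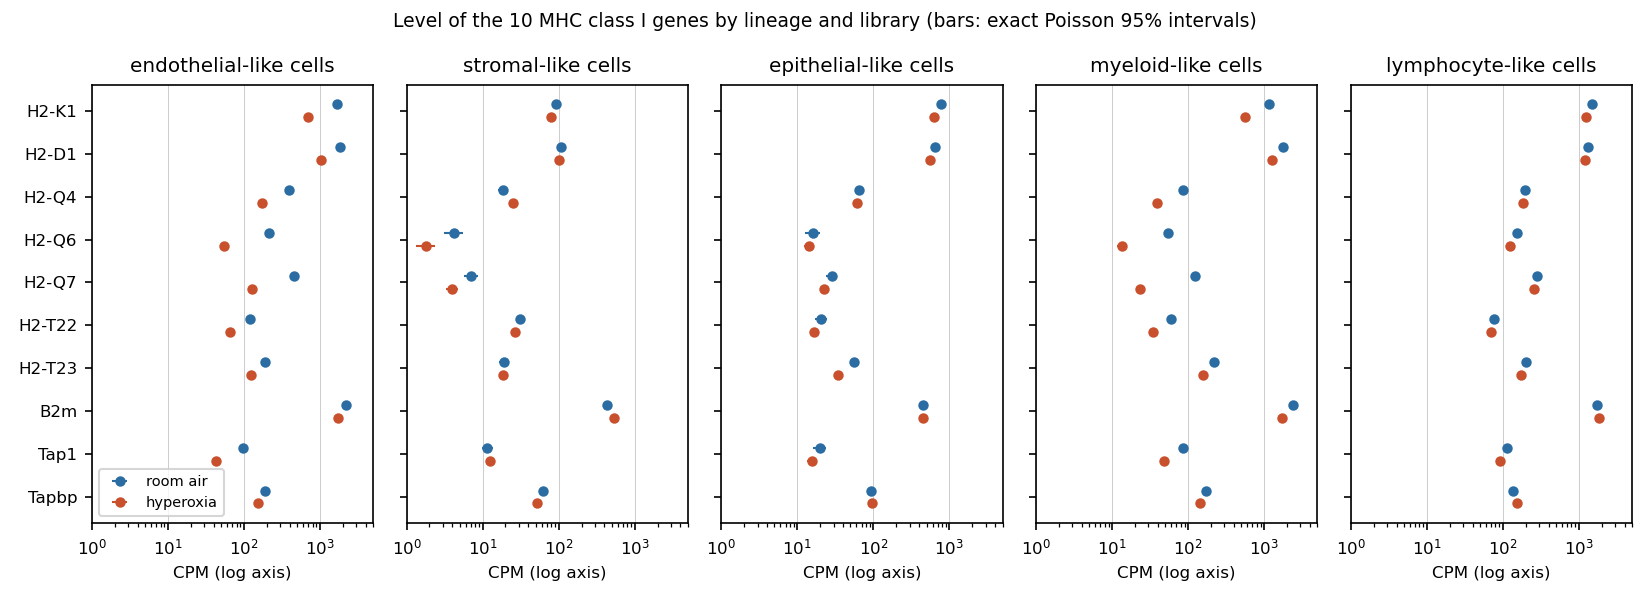
CPM of the 10 members on a log axis in 5 lineages, in room air (blue) and hyperoxia (red). Points are UMIs summed over the cells of a lineage and bars are exact Poisson 95% intervals. In endothelial-like cells each red point lies left of its blue point, with the widest gaps at *H2-Q6* (217 and 54.7 CPM) and *H2-Q7* (452 and 127 CPM).

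The size of these differences was not the same in the EC subpopulations. In gCap-like ECs the sum of *H2-Q6* and *H2-Q7* was 810 CPM (785 to 837) in room air against 216 CPM (205 to 227) in hyperoxia, with a log2 ratio of -1.91 (-1.99 to -1.82). In aCap-like ECs (aerocytes, the capillary cells of gas exchange) the sum was 245 CPM (220 to 273) and 136 CPM (129 to 145), a log2 ratio of -0.85 (-1.02 to -0.67). Artery-like ECs, in 94 and 152 cells, had 498 and 224 CPM (-1.15, -1.36 to -0.94). Vein-like ECs had 332 CPM in 34 cells of room air against 124 CPM in 114 cells of hyperoxia (-1.42, -1.76 to -1.08). The sum was therefore lower in hyperoxia in each of the 4 subpopulations, and the level of room air was highest in gCap-like and lowest in aCap-like ECs. In hyperoxia gCap-like and artery-like ECs had overlapping intervals, and so did aCap-like and vein-like ECs. Removal of double the expected doublets moved the ratio of aCap-like ECs to -0.48. Of the aCap-like ECs cluster 1 held 639 of the 1126 cells of hyperoxia and 17 of the 160 of room air, and cluster 11 held 25 cells of room air and none of hyperoxia. The gCap-like cells were 586 of the 1034 ECs of room air and 799 of the 2537 of hyperoxia, and with all 4 subpopulations weighted equally the log2 ratio of the sum was -1.33 and the median over the members -0.70. The ECs that were given no name, 146 in room air and 313 in hyperoxia, had 933 CPM (867 to 1002) and 210.2 CPM (187 to 235) of the sum (-2.15, -2.35 to -1.95), above gCap-like ECs in room air. In 14 and 33 lymph-like ECs, too few for a ratio, the sum was 504 and 572 CPM with overlapping intervals.

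Among single members, *H2-K1* had 1873 and 711 CPM in gCap-like ECs (-1.40, -1.45 to -1.35). The corresponding log2 ratios were -0.61 in aCap-like, -0.68 in artery-like and -0.90 in vein-like ECs. *Tap1* had 97.4 and 38.8 CPM in aCap-like ECs (-1.33, -1.63 to -1.03), the lowest ratio of any member there, and *H2-T23* was next with 212 and 100 CPM (-1.08). In vein-like ECs *Tap1* had 27.4 CPM and 43.3 CPM, and the interval of its log2 ratio of 0.66 reached from -0.31 to 1.79, and no difference could be detected at this depth. *Tap1* in artery-like ECs (74.0 and 35.8 CPM, -1.05) moved to between -1.09 and -0.21 under other settings. *Tapbp* in artery-like ECs had 202 and 232 CPM, with an interval of the ratio that held 0. In gCap-like ECs 7 of 10 members were at least 1.5-fold lower, where 9.57% of genes were, and 5 of 10 in aCap-like ECs, where 8.96% were. The medians over the members were -1.03 in gCap-like, -0.60 in aCap-like, -0.64 in artery-like and -0.67 in vein-like ECs.

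**Figure D2:**
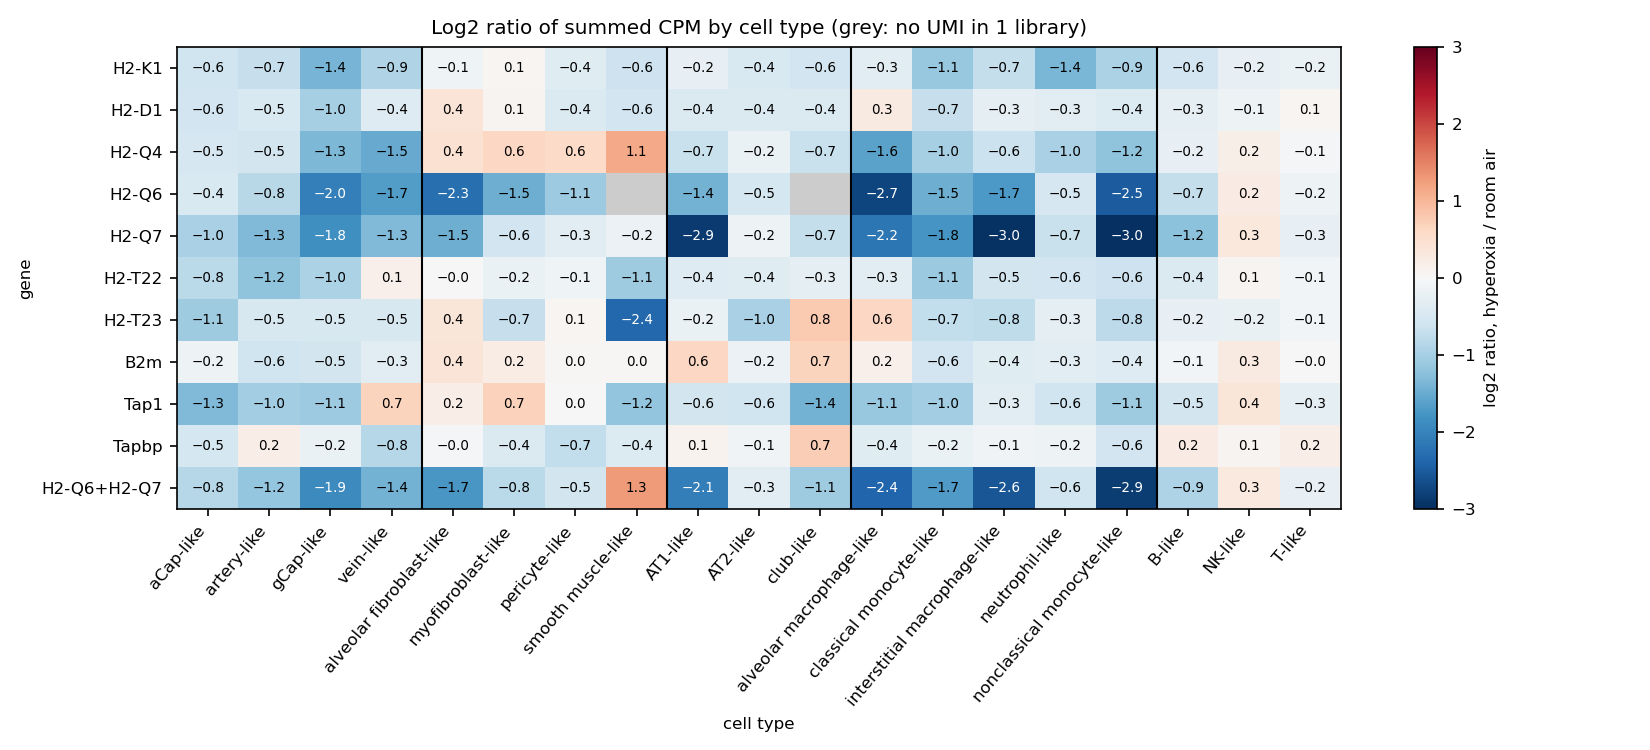
Log2 ratio of hyperoxia over room air (colour and printed value) for the 10 members and the sum of *H2-Q6* and *H2-Q7* (rows) in the 19 cell types with at least 30 cells in each library (columns), with black lines between lineages and grey where a library had no UMI. Blue prevails in the endothelial and myeloid columns, and the NK-like and T-like columns are pale.

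The difference also showed in the number of UMIs per cell. With every cell thinned to 2000 UMIs, at least 1 UMI of *H2-Q6* or *H2-Q7* was found in 406 of 563 gCap-like ECs of room air (72.1%, 68.2 to 75.8) against 234 of 790 of hyperoxia (29.6%, 26.5 to 32.9). Thinning left out 23 and 9 shallower cells. Without thinning the shares were 92.0% (median 7584 UMIs) and 65.3% (median 8657 UMIs). Cells with 5 or more UMIs were 6.22% of the thinned gCap-like ECs of room air and none of 790 in hyperoxia. The 7 heavy chains together had a median of 10 UMIs per thinned gCap-like EC in room air and 4 in hyperoxia. In aCap-like ECs the thinned shares, 23.4% (16.4 to 31.7) and 19.3% (16.8 to 22.1), overlapped. No cell type is known to lack class I genes, but myofibroblast-like cells, with the lowest shares of the types compared, had 2.46% in room air (unthinned median 14233 UMIs) and 0.394% in hyperoxia (12206 UMIs), so that all these EC shares lay above that level.

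**Figure D3:**
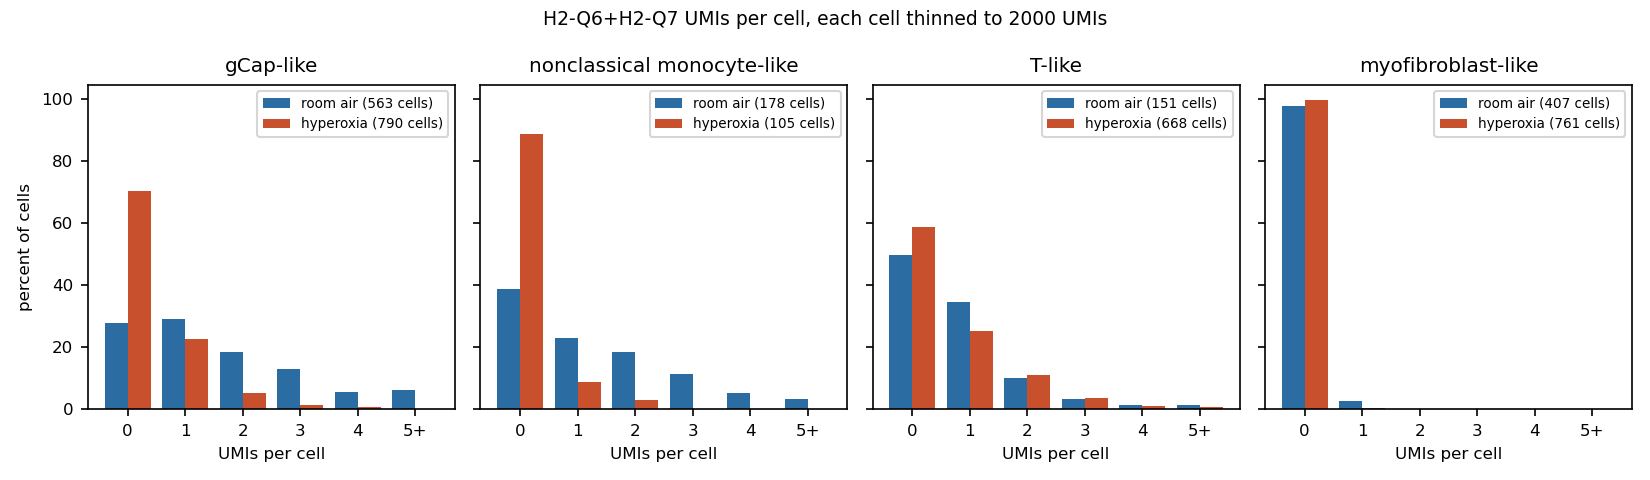
Percent of cells (vertical axis) by the number of *H2-Q6* and *H2-Q7* UMIs per cell (horizontal axis), each cell thinned to 2000 UMIs, for room air (blue) and hyperoxia (red) in 4 cell types. In gCap-like ECs the bar at 0 UMIs is 27.9% in room air and 70.4% in hyperoxia, and in myofibroblast-like cells nearly all cells stand at 0.

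Summed over the lineage, myeloid-like cells resembled the ECs. All 10 members had fewer CPM in hyperoxia, with a median log2 ratio of -0.83 against -0.08 over all genes. Of the 10 members 6 were at least 1.5-fold lower, with none 1.5-fold higher, where 8.53% of genes were lower and 4.62% higher. The sum of *H2-Q6* and *H2-Q7* was 176 CPM (167 to 187) in room air against 37.0 CPM (33.7 to 40.6) in hyperoxia, with a log2 ratio of -2.25 (-2.41 to -2.10). With double the expected doublets removed, which left 752 and 1162 of the 760 and 1442 myeloid-like cells, it was -3.55, and the ratios of *H2-Q4* and *Tap1* were -1.78 and -1.70. *H2-K1* had 1160.4 and 562 CPM (-1.05), *H2-Q4* had 85.8 and 39.5 CPM (-1.12), *Tap1* had 86.3 and 47.5 CPM (-0.86) and *B2m* had 2427 and 1710.2 CPM (-0.50). *Tapbp* was again near 0, with 171 and 142 CPM (-0.27). The mix of myeloid types differed between the libraries. Nonclassical monocyte-like cells were 184 of 760 cells in room air and 108 of 1442 in hyperoxia. Neutrophil-like cells were 106 and 468. The part of this mix in the lineage ratios was not tested.

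The levels in myeloid-like cells came largely from a few types. Nonclassical monocyte-like cells, which patrol the inner face of the vessels, had 621 CPM of the sum (573 to 671) in 184 cells of room air against 85.7 CPM (61.0 to 117) in 108 cells of hyperoxia, with a log2 ratio of -2.86 (-3.36 to -2.39). In them *H2-Q7* had 434 CPM and 52.7 CPM (-3.04, -3.70 to -2.45), the lowest ratio of *H2-Q7* in any type. With each cell thinned to 2000 UMIs, 61.2% (53.7 to 68.4) of these cells in room air against 11.4% (6.05 to 19.1) in hyperoxia had a UMI of either copy. Their classical heavy chains differed less, with 2680 and 1391 CPM of *H2-K1* (-0.95) and 3539 and 2681 CPM of *H2-D1* (-0.40). Among the members 7 of 10 were at least 1.5-fold lower, where 12.1% of genes were. Interstitial macrophage-like cells had 214 and 36.2 CPM of the sum (-2.56, -3.10 to -2.04).

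Classical monocyte-like and neutrophil-like cells had little of the Q6 and Q7 copies, with at most 35.9 CPM of the sum in either library, and differed in *H2-K1*. It had 1208 and 547 CPM in classical monocyte-like cells (-1.14, -1.28 to -1.01) and 1158 and 451 CPM in neutrophil-like cells (-1.36, -1.54 to -1.17). The classical monocyte-like cells had 1.5-fold lower values for 7 of the 9 members that passed the CPM filter, all but *H2-Q6*, where 8.44% of genes were. In alveolar macrophage-like cells the members went both ways. Of 9 tested, all but *H2-Q6*, 3 were 1.5-fold lower and 1 was higher, where 1652 and 320 of 7381 genes were. The median log2 ratio in this type was -0.35 over the members and -0.24 over all genes. The sum of *H2-Q6* and *H2-Q7* had 38.7 CPM (30.6 to 48.2) in room air against 7.39 CPM (5.35 to 9.95) in hyperoxia. *H2-Q4* was lower there (49.0 CPM in room air, log2 ratio -1.62) and *H2-T23* was higher (95.5 and 146 CPM, 0.61, 0.39 to 0.85), while *B2m* had 1273 and 1419 CPM (0.16, 0.09 to 0.22). Clusters that drew 90% or more of their cells from 1 library held 85.1% of the alveolar macrophage-like cells of room air and 96.9% of those of hyperoxia.

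In lymphocyte-like cells the differences were small. None of the 10 members was 1.5-fold lower or higher, where 2.38% and 3.01% of genes were, and their median log2 ratio was -0.15 against 0.05 over all genes. *H2-K1* had 1489 CPM (1454 to 1523) in room air against 1227 CPM (1207 to 1247) in hyperoxia, and the sum of *H2-Q6* and *H2-Q7* had 433 CPM (414 to 452) and 380 CPM (369 to 391), a log2 ratio of -0.19 (-0.26 to -0.11). *B2m* (1753 and 1823 CPM, 0.06, 0.02 to 0.09) and *Tapbp* (135 and 156 CPM, 0.20, 0.08 to 0.34) were slightly higher in hyperoxia. The types within the lineage were not alike. B-like cells had 373 CPM of the sum in room air against 195 CPM in hyperoxia (-0.93, -1.07 to -0.79), in which *H2-Q7* had 172 and 73.2 CPM (-1.24). At least 1.5-fold lower in B-like cells were 2 of 10 members, *H2-Q6* and *H2-Q7*, where 3.33% of genes were. *H2-K1*, with 1240 and 828 CPM there, fell just short of that limit, and 9 of 10 members had log2 ratios below 0. NK-like cells had 691 CPM (625 to 762) and 844 CPM (795 to 894) of the sum, a log2 ratio of 0.29 (0.12 to 0.46), and T-like cells had 418 and 355 CPM (-0.24, -0.39 to -0.08). None of 10 members was 1.5-fold lower in T-like cells, where 6.15% of genes were, and the 7 heavy chains had a median of 6 UMIs per thinned T-like cell in both libraries.

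In stromal-like cells the classical and Q region heavy chains had their lowest levels of the 5 lineages. Their 7 heavy chains together had 278 CPM in room air against 257 CPM in hyperoxia, against 435 CPM (423 to 447) and 533 CPM (524 to 541) of *B2m*, a log2 ratio of 0.29 (0.25 to 0.34) for the latter. The sum of *H2-Q6* and *H2-Q7* was 11.3 CPM (9.44 to 13.4) and 5.78 CPM (4.95 to 6.72), from 131 and 170 UMIs, and among the 4 named stromal types with a ratio it was highest in the alveolar fibroblast-like cells of room air, at 15.6 CPM, while 36 stromal-like cells of room air without a name had 30.9 CPM. Of the 8 members above the CPM filter, all but *H2-Q6* and *H2-Q7*, none was 1.5-fold lower or higher, where 5.14% and 5.27% of genes were. *H2-Q4* had 18.3 and 24.9 CPM, a log2 ratio of 0.45 (0.23 to 0.68) that became -0.04 with no doublets removed. The median over the members was -0.13.

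Epithelial-like cells had 773 CPM (749 to 797) of *H2-K1* in room air against 628 CPM (614 to 641) in hyperoxia, and 44.3 and 37.0 CPM of the sum of *H2-Q6* and *H2-Q7*. The log2 ratio of the sum, -0.26 (-0.49 to -0.03), changed sign to 0.09 under another setting. At least 1.5-fold lower was 1 of 10 members, *H2-T23* (55.9 and 34.7 CPM, -0.69, -0.90 to -0.47), where 9.98% of genes were, and no member was 1.5-fold higher, where 6.52% were. *B2m* had 446 CPM in both libraries. The alveolar type 2 (AT2)-like cells, which make surfactant, had 2 of 10 members 1.5-fold lower, *H2-T23* (64.2 and 32.8 CPM) and *Tap1* (15.3 CPM in hyperoxia), where 7.29% of genes were. Clusters that drew 90% or more of their cells from 1 library held 7.98% of the AT2-like cells of room air and 81.3% of those of hyperoxia. In AT1-like cells, 66 in room air and 128 in hyperoxia, the members went both ways. The sum of *H2-Q6* and *H2-Q7* was 36.7 and 8.68 CPM (-2.08, -3.36 to -0.94) and *H2-Q4* had 113 and 71.4 CPM (-0.66, -1.14 to -0.19), whereas *B2m* had 456 and 705 CPM (0.63, 0.44 to 0.82). The AT1-like cells of room air also held 35027 CPM of the surfactant gene *Sftpc*, and those of hyperoxia 6583 CPM, and the part of other cells' RNA in these ratios was not tested. The club-like cells of hyperoxia stood apart, with a median of 1742 UMIs against 41392 in room air, and are not described further.

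**Figure D4:**
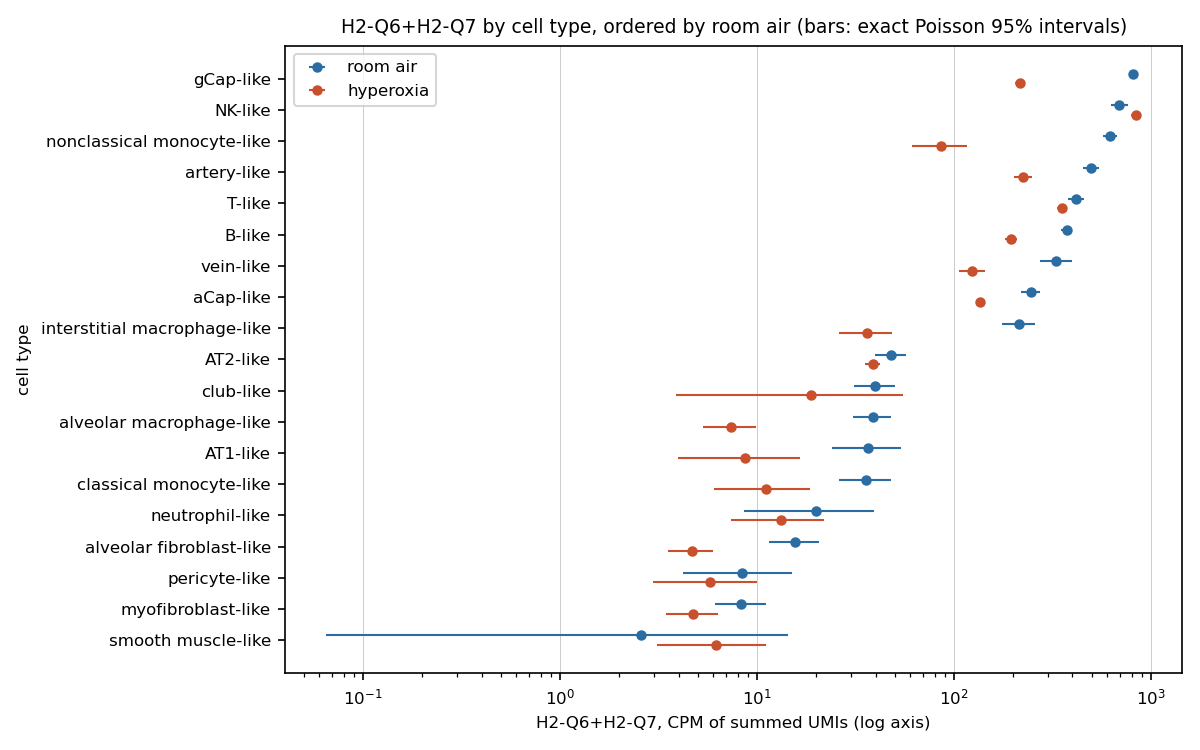
CPM of *H2-Q6* and *H2-Q7* summed (horizontal log axis) in 19 cell types in room air (blue) and hyperoxia (red), ordered by room air, with exact Poisson 95% intervals. The gCap-like ECs lead in room air at 810 CPM and NK-like cells lead in hyperoxia at 844 CPM, and the stromal types lie lowest in both.

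The order of the 19 named cell types with at least 30 cells in each library, by the sum of *H2-Q6* and *H2-Q7*, differed between the libraries. In room air gCap-like ECs came at the top of these, above NK-like cells (691 CPM) and nonclassical monocyte-like cells (621 CPM), whose intervals overlapped. Artery-like ECs (498 CPM), T-like (418 CPM), B-like (373 CPM) and vein-like cells (332 CPM) followed, each overlapping with the next. After aCap-like ECs (245 CPM) and interstitial macrophage-like cells (214 CPM), all further types had 48.0 CPM or less. In hyperoxia NK-like cells (844 CPM) and T-like cells (355 CPM) came before the 4 EC types so ordered, and neither overlapped with the next. The next were artery-like, gCap-like and B-like cells at 224, 216 and 195 CPM. For *H2-K1* nonclassical monocyte-like cells led in room air (2680 CPM) and NK-like cells in hyperoxia (1768 CPM), and the gCap-like ECs were at rank 3 in room air (1873 CPM) and at rank 7 in hyperoxia (711 CPM). *B2m* was highest in nonclassical monocyte-like cells in both libraries, with 5274 and 4002 CPM.

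The proportion of heavy chain to light chain UMIs was lower in hyperoxia in all 5 lineages. Besides the ECs (2.22 and 1.32 heavy chain UMIs for each *B2m* UMI), it was 2.12 and 1.77 in lymphocyte-like, 1.43 and 1.22 in myeloid-like, 0.639 and 0.483 in stromal-like and 3.61 and 2.98 in epithelial-like cells. The share of *H2-Q6* and *H2-Q7* among heavy chain UMIs did not follow the same pattern. In myeloid-like cells it was 5.07% (4.79 to 5.36) and 1.78% (1.62 to 1.95), and in lymphocyte-like cells 11.6% (11.2 to 12.1) and 11.8% (11.4 to 12.1). The lymphocyte types went different ways. In B-like cells the share was lower in hyperoxia, at 11.1% (10.4 to 11.9) and 7.94% (7.45 to 8.45). In NK-like cells it was higher, at 13.03% (11.9 to 14.3) and 17.1% (16.2 to 18.0). In T-like cells the intervals, 10.98 to 13.1 and 10.4 to 11.6, overlapped.

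Other genes of the pathway were taken from 8 lists, chosen with results of these data known, and are given for ECs. Of all genes tested in ECs 8.9% were 1.5-fold lower and 6.67% were 1.5-fold higher, and the counts below stand beside these shares. Of 16 other class I heavy chain genes 10 were in the table and 2 passed the CPM filter, both 1.5-fold lower. They were *Cd1d1*, which presents lipids (45.7 and 17.4 CPM, -1.39), and *H2-M3*, which presents formylated peptides (40.0 and 18.9 CPM, -1.08). Of 6 genes of peptide transport, trimming and loading, 1 was 1.5-fold lower, *Tap2*, the partner of *Tap1* (88.3 and 52.0 CPM, -0.76, -0.90 to -0.63), and the median was -0.20. *Tapbpl*, a relative of tapasin (-0.50), and the chaperone gene *Canx* (0.33) lay within 1.5-fold. The immunoproteasome is an interferon-induced form of the proteasome that favours class I peptides. Of 5 genes of the immunoproteasome and its activator 2 were 1.5-fold lower, with a median of -0.42. The catalytic subunit genes *Psmb9* (146 and 59.6 CPM, -1.30, -1.41 to -1.18) and *Psmb8* (203 and 124 CPM, -0.72) were lower by more than 1.5-fold and *Psmb10* by less (147 and 110 CPM, -0.42). Of the 3 constitutive subunit genes they replace none was 1.5-fold lower or higher, with 142 and 209 CPM of *Psmb5* (0.56), 108 and 154 CPM of *Psmb7* (0.51) and 171 and 235 CPM of *Psmb6* (0.46).

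Of 12 regulators 8 passed the filter, with a median of -0.31. The type I interferon receptor gene *Ifnar2* (100.3 and 68.5 CPM, -0.55) and the transcription factor gene *Irf1* (230.0 and 172 CPM, -0.42) lay within 1.5-fold. Of 18 interferon-stimulated genes 12 passed the filter and 11 of them were 1.5-fold lower, with a median of -1.33, below that of the members. Some of the 11, *Tgtp2* among them, had under 10 CPM in hyperoxia and passed the filter only through their room air level. The count is therefore a description. The lowest ratios were those of the interferon-inducible GTPase genes *Tgtp2* (29.8 and 2.99 CPM, -3.32, -3.75 to -2.90), *Iigp1* (186 and 41.8 CPM, -2.15) and *Ifi47* (65.6 and 18.5 CPM, -1.82). Of all genes 8.9% were lower by that much in ECs. Of the same list 6 of 11 tested genes were lower and 1 was higher in myeloid-like cells (median -0.73), where 8.53% of all genes were lower and 4.62% higher. The myeloid types were not alike. The median was -0.91 in classical monocyte-like and -0.96 in neutrophil-like cells. It was -0.28 in interstitial macrophage-like and -0.18 in nonclassical monocyte-like cells. The medians over the members were -1.02 in classical monocyte-like, -0.54 in neutrophil-like, -0.59 in interstitial macrophage-like and -0.87 in nonclassical monocyte-like cells. In lymphocyte-like cells 1 of 10 was lower (median -0.27), against 2.38% of all genes. In stromal-like cells none of 6 was lower and 1 was higher (median -0.27), against 5.14% and 5.27%, and in epithelial-like cells 3 of 5 were lower and 1 was higher (median -0.95), against 9.98% and 6.52%. Over the 16 cell types with at least 5 of these genes tested, the medians of the list and of the members correlated with a Pearson r of 0.55. The points share 2 libraries, and both medians of a type come from the same cells.

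**Figure D5:**
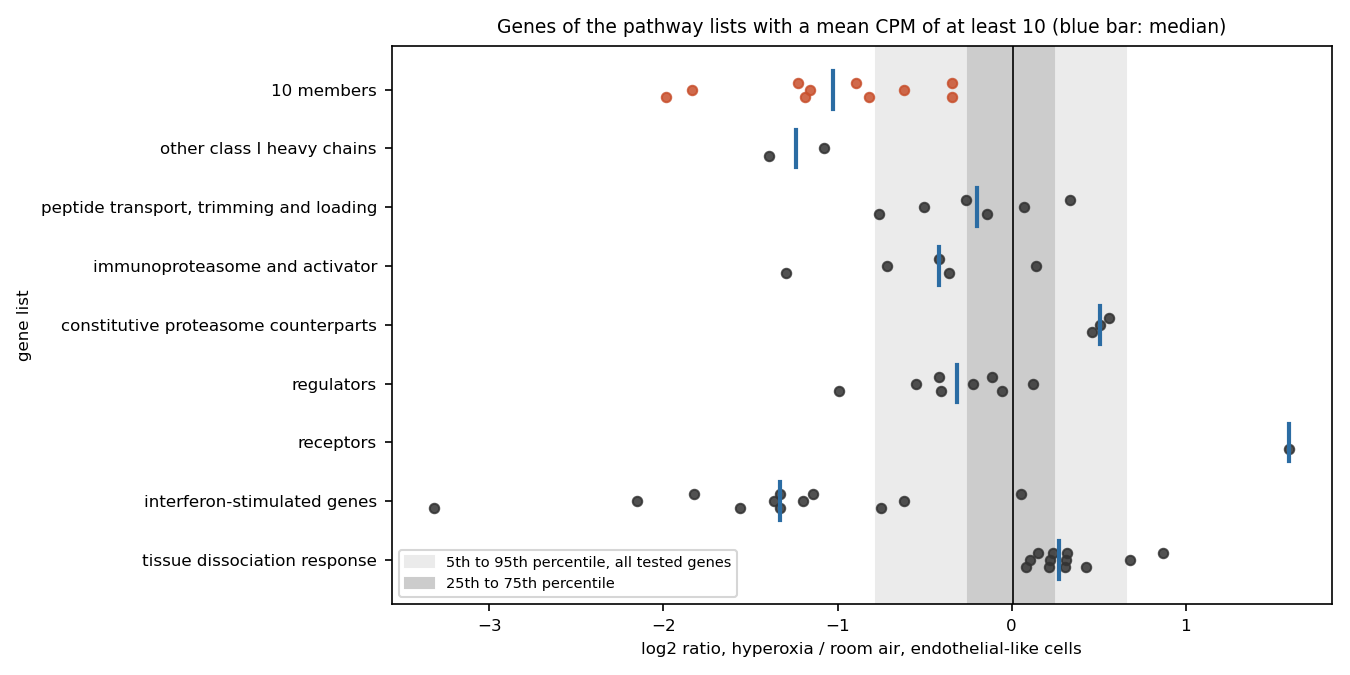
Log2 ratio of hyperoxia over room air in endothelial-like cells (horizontal axis) for those of the 10 members (red) and of 8 lists (black) that reached a mean of 10 CPM, with the median of each list as a blue bar. The shaded bands hold the 25th to 75th and the 5th to 95th percentile of all 8402 genes tested, which run from -0.25 to 0.24 and from -0.78 to 0.66, and the medians of the members (-1.03) and of the interferon-stimulated genes (-1.33) lie to the left of both bands.

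Of 7 listed receptor genes of leukocytes only *Lilrb4a*, which encodes an inhibitory receptor, passed the filter in ECs, with 7.07 and 21.4 CPM (1.59, 1.20 to 2.02). It passed only through its level in hyperoxia, so nothing is read from its ratio. Of 12 genes of the response to tissue dissociation none was 1.5-fold lower and 2 were higher, where 8.9% and 6.67% of all genes were. The 2 were *Fosb* (0.87) and *Hsp90aa1* (0.68), with *Hspa1b* next (0.43). The sum of this list was 5327 CPM in room air against 6539 CPM in hyperoxia. The 8 immune genes used as a sign of leukocyte RNA, such as *Ptprc* and *Cd79a*, summed to 155 CPM in the ECs of room air against 118 CPM in those of hyperoxia, none of them at 0. In the 430 ECs of room air and 1145 of hyperoxia without any UMI of these genes, the log2 ratio of the sum of *H2-Q6* and *H2-Q7* was -2.01, against -1.88 in all ECs. *Sftpc*, the most abundant gene of AT2 cells, had 329 and 479 CPM in the ECs. The part of the dissociation response, of leukocyte RNA and of free RNA in the ratios was not tested.

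The genes whose levels were most like the sum of *H2-Q6* and *H2-Q7*, by Pearson correlation of log2(CPM + 1) over 19 cell types in both libraries (38 points), were *Il2rg* (r 0.85), *Anp32a* (0.80), *Ly6e* (0.79), *Gimap4* (0.78) and *Gimap1* (0.75), of 3493 genes outside the lists with a mean of at least 50 CPM. Among the members, r with the sum was 0.91 for *H2-Q4*, 0.83 for *H2-K1*, 0.78 for *Tap1*, 0.75 for *H2-T22*, 0.71 for *H2-T23*, 0.69 for *H2-D1*, 0.66 for *B2m* and 0.63 for *Tapbp*. *Il2rg*, which encodes the shared chain of several cytokine receptors, had 62.1 CPM in the ECs of room air against 89.3 CPM in those of hyperoxia, with a log2 ratio of 0.53 (0.38 to 0.67), opposite to the sum. The points share 2 libraries and their depths, and the correlation is a description of levels, not of differences.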

How the data were processed

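Lung cells of 2 groups were measured by droplet-based scRNA-seq, with 1 pooled library for each group. The authors aligned the reads to the mm10 transcriptome with Cell Ranger and deposited raw UMI counts per gene and barcode, without normalization. The submitters' processing notes name version 2.1.1 and the matrix headers 3.1.0, while a later version stands in the methods. The kit is given as V3 in the methods and V2 in the labels.

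Barcodes under 500 genes or over 20% mitochondrial UMIs were left out. Doublets were scored against 2 simulated doublets for each cell and removed at 0.8% per 1000 barcodes, 129 in room air and 1239 in hyperoxia. Cells were clustered (2000 variable genes, 30 principal components, 20 neighbours, Leiden resolution 1, seed 1; scikit-learn 1.9.0, igraph 0.11.9, leidenalg 0.10.2) and each lineage was clustered again. How marker levels name a cluster was revised after clusters had been seen. UMIs were summed over cells as CPM with exact intervals (Python 3.11.15, numpy 2.4.6, scipy 1.17.1, pandas 2.3.3). The ratio intervals were run on simulated Poisson counts without spread between cells, mice or libraries, which checks the calculation only. Genes whose mean reached 10 CPM counted as tested, and types needed 30 cells in each library for a ratio. Shares have exact Clopper-Pearson 95% intervals. TMM factors came from edgeR 4.0.16 (R 4.3.3). Transcripts were aligned with Biopython 1.88.

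The members and lists were chosen with earlier results of these data known. Named genes were the members, the 3 genes of each list with the largest absolute log2 ratio in ECs and the 5 genes most like the sum. Of each list, genes below the filter were not named. The value of 1 listed gene is not reported here. Alternatives were other resolutions, separate clustering, other doublet rates, cell filters, scalings, and subsets or weights of the ECs. The bulk RNA-seq was not analysed here.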

Additional observations from a re-analysis of the deposited data

Results flagged for a closer look

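The following differences stand out because the 2 lineages compared went in opposite directions. With 1 library per group, the difference was not tested for any of them. The log2 ratio of *H2-Q4* was 1.63 higher in stromal-like cells (0.45) than in endothelial-like cells (-1.19), where all members were lower in hyperoxia, but the stromal-like value was -0.04 with no doublets removed. *B2m* had a log2 ratio 0.80 higher in stromal-like cells (0.29) than in myeloid-like cells (-0.50), and the sign of both was kept under the 10 alternatives run for each. The mix of myeloid types differed between the libraries, and its part in this difference was not tested. For *Tapbp* the log2 ratio was 0.54 higher in lymphocyte-like cells (0.20) than in endothelial-like cells (-0.34), a difference of small ratios.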

How the results depend on the processing

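No paired analysis was possible because each group had 1 library, and no replicate could be left out for the same reason. The log2 ratio of *H2-Q6* and *H2-Q7* summed in ECs (-1.88) was -1.81 with no doublets removed, -1.79 with cells limited to 1000 genes or more and 10% mitochondrial UMIs or less, -1.80 with TMM factors, -1.79 with median-of-ratios size factors, -1.95 as the mean of single-cell CPM, -2.01 in ECs without immune UMIs and -1.33 with subpopulations weighted equally. The median over the 10 members (-1.03) was -0.94 with TMM factors, -0.93 with median-of-ratios factors and -0.70 with equal weights. At least 1.5-fold lower were 8 members, 7 with either of these factors, and 5 were 2-fold lower. Of all genes 748 were 1.5-fold lower, 248 (6.73%) among those with a mean CPM of at least 50, 1985 (16.1%) with at least 1 CPM, and 233 (2.77%) at 2-fold. The other 26 of these 40 values moved by less than the counting interval or, for counts, by less than 1.5 times. Of 1012 values for single members in lineages and EC types, shares included, 130 moved by more, and none of 47 results with a difference of at least 1.5-fold changed sign. Over 98 ratios 15 alternatives changed sign, all in stromal-like or epithelial-like cells. Low levels limit the Q6 and Q7 values of stromal-like, AT1-like and classical monocyte-like cells, and the number of cells those of vein-like ECs. With 1 library per group, neither the spread between mice nor that between libraries is known.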
